A study of Mus musculus with 16 samples.

Results

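The combined treatment of mouse embryonic fibroblasts with trichostatin A (TSA) and dipyridyl (DP) was set against the ethanol (EtOH) vehicle, as the 4 arrays labelled TSA_DP and the 4 labelled EtOH among the 16 arrays of the series. Each of 4 primary fibroblast lines gave 1 array per treatment, so the combined and the vehicle arrays were paired by line and there were no replicate cultures within a line. The arrays of TSA alone and DP alone, 4 of each, were used to split the net change into what each agent contributed. TSA was given at 100 ng/ml and DP at 100 µM. In the combined cultures DP followed TSA by 30 min, and RNA was taken 3 h after the second addition under normoxia.

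The 4 lines were flox1 (CBP+/flox), flox2 (p300+/flox), triCH1flox1 (CBP CH1/flox; p300 CH1/CH1) and triCH1flox2 (CBP CH1/CH1; p300 CH1/flox). CH1 marks an allele with a mutated CH1 domain, and flox an allele removable by Cre recombinase. All lines, the flox1 and flox2 controls included, had been infected with Cre adenovirus at passage 3 and then expanded at least 100-fold. The cells came from mouse embryos, recorded at the same embryonic day for all 4 lines. After Cre the 2 control lines keep an intact CH1 domain in CBP and p300, while the 2 triCH1 lines keep CBP and p300 alleles of which none has an intact one. Each genotype was 1 line, so genotype and line cannot be told apart. The p-values measure the spread of treatment changes from line to line, after differences in level between lines were taken out.

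TSA blocks histone deacetylases, the enzymes that remove acetyl groups from histones and other proteins, and changes the transcription of many genes in both directions. DP binds iron. The prolyl and asparaginyl hydroxylases that restrain hypoxia-inducible factor (HIF) need iron, so chelation turns on HIF targets in normal oxygen, such as genes of glycolysis, glucose transport and mitophagy. CBP and p300 are acetyltransferases that HIF recruits through their CH1 domain.

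Signals are the array software's values, scaled on every array to a trimmed mean of 500, and changes are differences of log2(signal + 50), which understate the change of dim genes. Of 45101 probe sets, 11481 genes passed a minimum signal of 200 on at least 2 of the 16 arrays, with the brightest probe set standing for each gene. Values in series of 4 are given in the order flox1, flox2, triCH1flox1, triCH1flox2. On the vehicle arrays Crebbp, the gene of CBP, read 1425, 2022, 1437 and 2500, lower in the 2 lines in which CBP is floxed. Ep300 read 1054, 645, 1319 and 941 there, lower in the 2 lines in which p300 is floxed. Where these probe sets lie relative to the deleted part was not checked. The 12 fibroblast markers summed to 194077 to 217603 on the combined arrays and 190031 to 236846 on the vehicle arrays, ranges that overlap. Quality values stood apart in 1 vehicle array: the flox1 EtOH array had a Gapdh 3′ to 5′ ratio of 2.59, against 0.907 to 1.26 on the other arrays, an actin ratio of 2.07, against 1.29 to 1.63, and the highest 18S ribosomal signal, 9280. By their barcodes in the labels the arrays fall into 2 series, and the combined arrays of flox2 and triCH1flox1 belong to the second while all vehicle arrays belong to the first, so only flox1 and triCH1flox2 give a comparison within 1 array series.

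With both agents the glucose transporter Slc2a3, the metallothioneins Mt1 and Mt2 and the death gene Bcl2l11 were among the largest rises above vehicle, and the chemokine Cxcl5, the coactivators Crebbp and Ep300 and several mitotic genes fell. Of 11481 genes, 2065 (18%) were higher and 1636 (14.2%) were lower than with vehicle in limma's moderated test at a Benjamini-Hochberg adjusted p under 0.05, with a median change of 0.01. At least 2-fold changes were fitted for 505 of the higher and 328 of the lower genes. The number of genes at least 2-fold higher in a line was 976, 753, 748 and 918 and at least 2-fold lower 748, 501, 689 and 803, so all 4 lines carried many changes in both directions. In the 2 lines whose arrays share a series, 1038 genes were higher and 732 lower, of which 966 and 697 were also called over all 4 lines.

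The net change was divided into a TSA part, the mean of both arrays with TSA minus the mean of both without, and a DP part, built the same way for DP. The 2 parts add up to the net change, and by construction neither overlaps the other. TSA carried most of the calls: its part was higher for 2815 genes (24.5%) and lower for 2132 (18.6%), while the DP part was higher for 139 (1.21%) and lower for 26 (0.226%). Among the 2065 net rises, 1855 had a called TSA part only, 44 a called DP part only, 33 both with the same sign, and 17 both with opposite signs. Of the 1636 net falls, 1458 had a called TSA part only and 5 a called DP part only. The single treatments are each set against the same vehicle arrays as the net change, so their values are given side by side and not correlated with it. The direct steps use no vehicle array. Adding DP to TSA left 16 genes higher (0.139%) and 1 lower (0.00871%) than TSA alone, and adding TSA to DP left 2068 higher (18%) and 1434 lower (12.5%) than DP alone. With each array centred on its median, that last split became 1630 higher and 1865 lower. Without the flox2 line, 6 genes were higher than with TSA alone. These 2 direct steps were added after the values were seen.

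**Figure D1:**
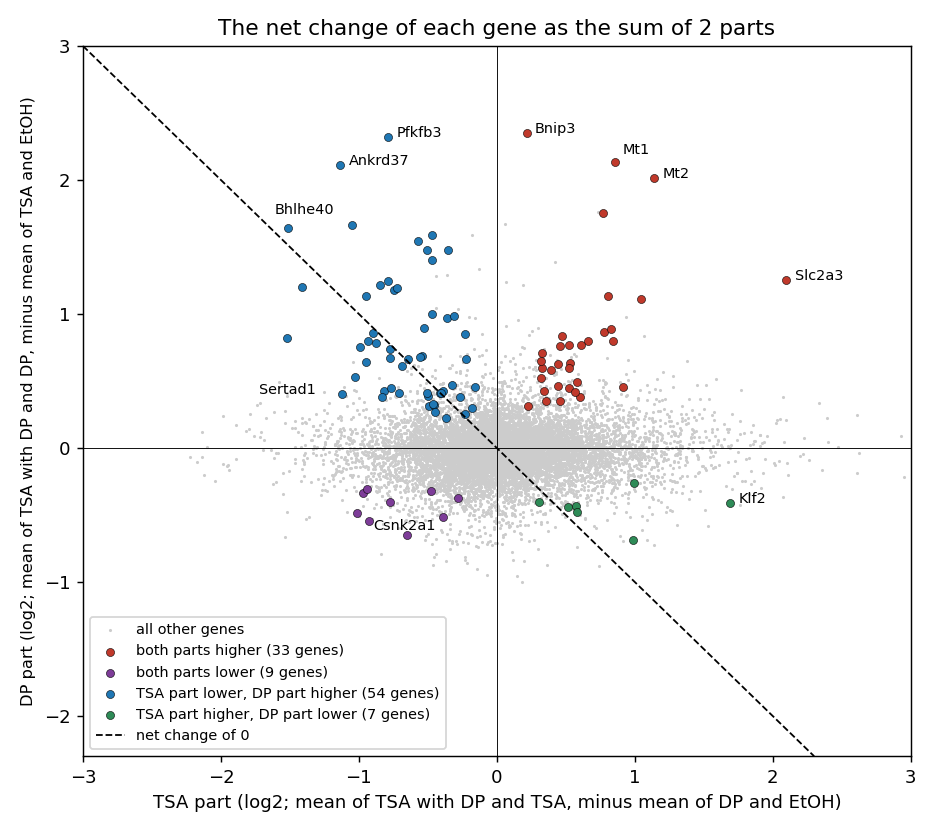
TSA part (x axis, log2) against DP part (y axis, log2) for each of the 11481 genes, from the fit over 4 lines. The dashed line is a net change of 0: genes with both parts higher lie upper right, and the 54 genes with a lower TSA part and a higher DP part lie upper left, on both sides of the dashed line.

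A gene was called reinforced when both parts passed the test with the same sign, and 33 genes (0.287%) were reinforced upward and 9 (0.0784%) downward. Without the flox2 line these numbers were 17 and 2. The 33 came from 139 genes with a higher DP part, near the 24.5% of all genes with a higher TSA part. The 7 largest net rises among the upward genes were, in order of size, those of the glucose transporter Slc2a3, the metallothioneins Mt2 and Mt1, the mitophagy gene Bnip3, the oxidase Ero1a, the chloride-proton exchanger Clcn3 and the corepressor subunit Sap30, and the zinc exporter Slc30a1, the copper exporter Atp7a and the transferrin receptor Tfrc were also members. The net changes of the 33 ran from 0.53 for Ipo5, a nuclear import receptor, to 3.35 for Slc2a3, with a median of 1.17, and the median single changes were 0.88 with TSA and 0.93 with DP. All 33 had every combined array above every vehicle array, which 13.7% of all genes did. The parts that define the class add up to the net change, so this separation follows largely from the choice of genes. The rise was nearly always smaller than the sum of the single rises on the log2 scale: the departure from that sum, a contrast that does not overlap with the net change, was below 0 in 32 of 33 genes, against 45.8% of all genes, and passed the test in 7. The exception was Pdia4, a protein disulfide isomerase of the endoplasmic reticulum, with a departure of 0.19 that did not pass.

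Slc2a3, which carries glucose into cells and is a HIF target, had the largest net rise of any gene. It read 2811, 2700, 1711 and 1268 with both agents, against 352, 130, 117 and 88.8 with vehicle. Every combined array was above every vehicle array, and the flox1 vehicle array was the highest of its group. The net change was 3.35 ± 0.24 (SE; 10.2-fold, adjusted p = 7.93e-09), beside 2.77 with TSA alone and 1.93 with DP alone. DP alone showed the lines apart, with 309 and 448 in the triCH1 lines but 1516 and 1209 in flox1 and flox2, whereas the combined signal was at least 1268 in all lines.

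Metallothioneins are small cysteine-rich proteins that bind zinc and copper, and the metal-sensing factor MTF1 drives them through metal response elements. Mt1 read 29297, 23861, 18039 and 19677 with both agents, 5576, 5067, 7142 and 4301 with TSA, 17242, 18108, 8851 and 11074 with DP, and 2686, 2396, 3328 and 2781 with vehicle. In no line did a single agent reach the combined level, and the combined array was the highest of the line each time. Its net change was 2.98 ± 0.18 (SE; 7.91-fold, adjusted p = 7.51e-10), and the departure from the sum of the single changes, -0.20, did not pass. Mt2 read 18137, 14020, 8698 and 12262 with both agents, against 991, 1509, 1786 and 1413 with vehicle. The groups were far apart in all lines. The net change of Mt2 was 3.16 ± 0.22 (SE; 8.92-fold, adjusted p = 6.80e-09), beside 1.25 with TSA and 2.12 with DP, and its departure was -0.21. A second Mt1 probe set gave 2.22 net, with 1.02 from DP and -0.26 from TSA. Slc30a1, which exports zinc from the cell and is another MTF1 target, read 1282, 1303, 1565 and 1171 with both agents, against 302, 479, 600 and 595 with vehicle. It rose by 1.38 ± 0.16 (SE; adjusted p = 2.35e-06), and its single changes of 0.66 and 0.81 added up almost exactly, with a departure of -0.09. A second Slc30a1 probe set gave 0.45 net, with -0.19 from TSA alone and 0.92 from DP alone.

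The promoters of these 3 genes, from RefSeq on GRCm38.p6, are shown because the metal response element is the sequence through which metals act on them. Each runs from 250 bases before to 50 after the start, 5′ to 3′ on the gene's strand, with matches to TGCACNC or TGCGCNC on either strand in capitals.
Mt1, chr8:94178839-94179138, plus strand: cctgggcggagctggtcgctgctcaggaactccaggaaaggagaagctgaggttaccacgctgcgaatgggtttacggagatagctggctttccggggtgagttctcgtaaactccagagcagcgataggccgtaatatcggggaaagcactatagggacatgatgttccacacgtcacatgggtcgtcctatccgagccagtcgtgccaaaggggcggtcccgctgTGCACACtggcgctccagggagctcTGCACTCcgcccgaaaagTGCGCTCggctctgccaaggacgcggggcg
Mt2, chr8:94172368-94172667, plus strand: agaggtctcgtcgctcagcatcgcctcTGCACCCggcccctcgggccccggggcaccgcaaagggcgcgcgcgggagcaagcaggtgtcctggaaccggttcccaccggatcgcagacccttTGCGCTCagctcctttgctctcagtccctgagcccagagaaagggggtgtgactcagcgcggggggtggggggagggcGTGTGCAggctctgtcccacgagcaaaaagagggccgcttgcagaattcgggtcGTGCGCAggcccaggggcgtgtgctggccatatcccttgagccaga
Slc30a1, chr1:191906531-191906830, plus strand: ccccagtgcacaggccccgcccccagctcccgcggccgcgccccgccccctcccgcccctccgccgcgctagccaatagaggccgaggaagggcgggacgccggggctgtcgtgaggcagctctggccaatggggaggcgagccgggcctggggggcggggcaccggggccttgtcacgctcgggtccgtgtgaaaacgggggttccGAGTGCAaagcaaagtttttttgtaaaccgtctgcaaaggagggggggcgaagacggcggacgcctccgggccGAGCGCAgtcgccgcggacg
Mt1 held 3 matches, Mt2 4 and Slc30a1 2. At least 1 match was found in the promoters of 18 of the 30 upward reinforced genes with a promoter entry, and in 41.4% of the 9313 tested genes with one. The matches are letters in a window and were not tested as binding sites.

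The combined signal exceeded both single treatments, each by limma's test, in 3 genes of 11481 (0.0261%): Mt1, Mt2 and Tfrc. Mt1 was higher than with TSA alone by 2.03 (adjusted p = 2.82e-06) and than with DP alone by 0.75 (adjusted p = 0.00307), and Mt2 by 1.91 (adjusted p = 1.46e-04) and 1.03 (adjusted p = 0.00145). Mt1 passed both steps in all 16 alternative settings and Mt2 in 15. Tfrc, which takes up transferrin-bound iron and whose mRNA is stabilised when iron is scarce, read 5058, 5074, 5889 and 5120 with both agents, 4106, 3429, 4421 and 3481 with TSA, 4239, 4358, 5015 and 3916 with DP, and 2431, 2147, 3265 and 2272 with vehicle. Within each line the combined array was the highest and the vehicle array the lowest. Tfrc rose by 1.06 ± 0.09 (SE; 2.09-fold, adjusted p = 2.38e-08), was 0.45 above TSA alone (adjusted p = 0.0320) and 0.27 above DP alone (adjusted p = 0.0207), and kept both steps in 8 of 16 settings. It lost them without the triCH1flox1, the flox2 or the triCH1flox2 line.

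**Figure D2:**
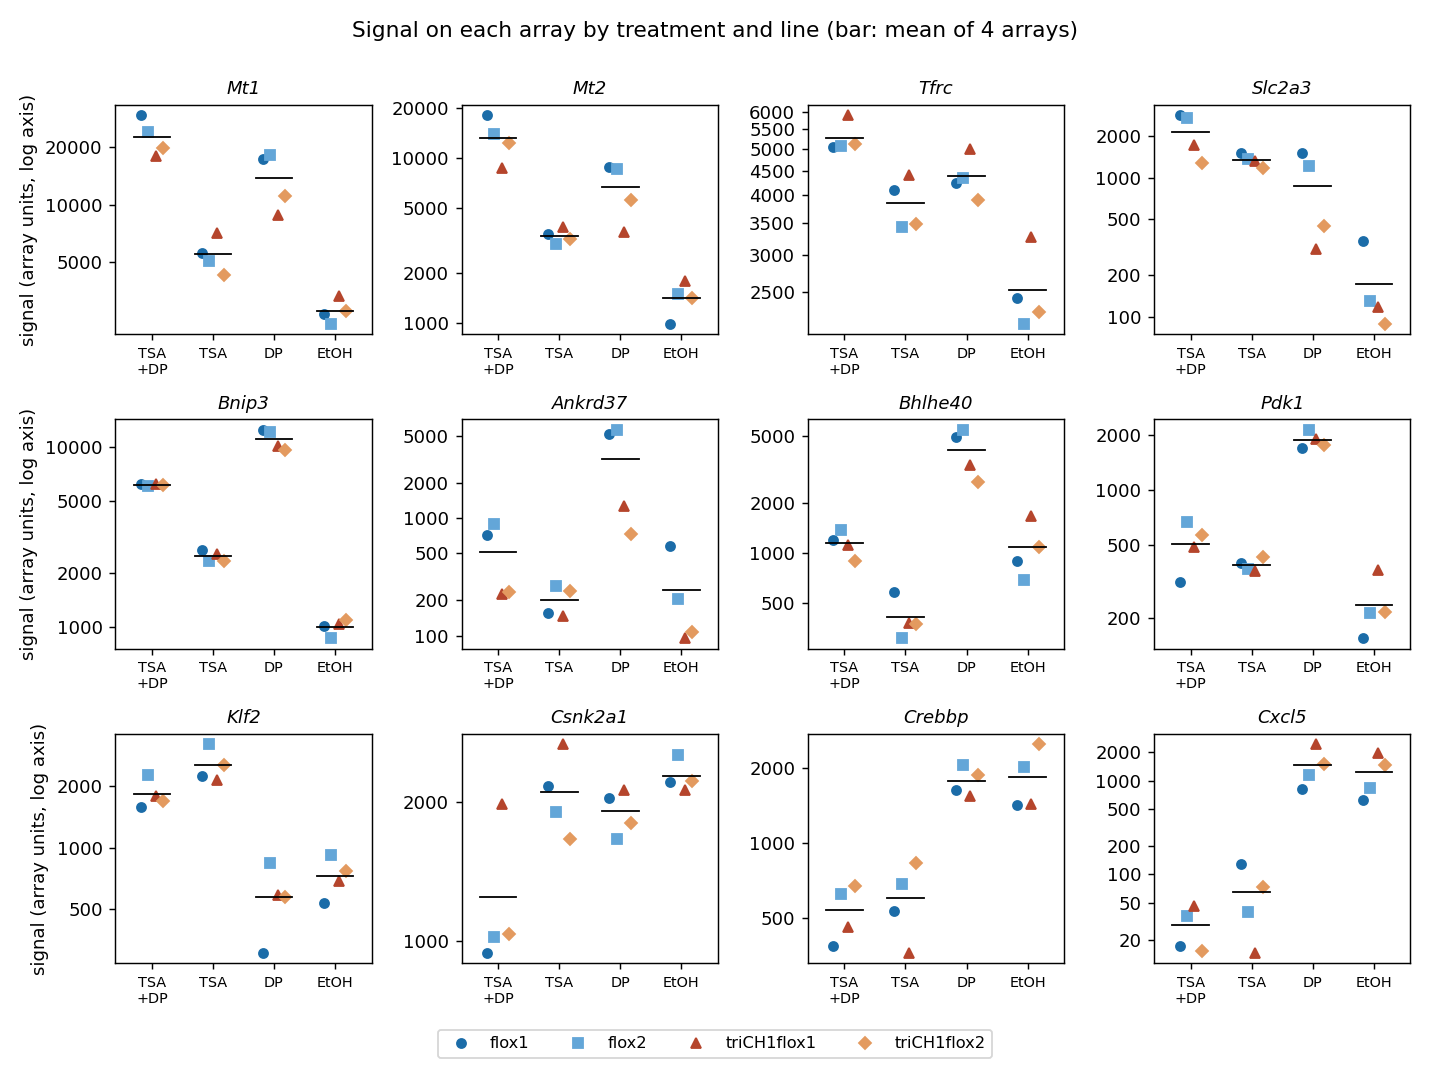
Signal of 12 genes on each array (y axis, log scale, array units), with treatments on the x axis from TSA with DP to vehicle, 1 marker per line and a bar at the mean of 4 arrays. Mt1, Mt2 and Tfrc are highest with both agents, Bnip3, Ankrd37, Bhlhe40 and Pdk1 are highest with DP alone, and Crebbp and Cxcl5 are low wherever TSA was present.

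In the other genes reinforced upward the combined signal did not pass the test above both single agents. Clcn3 read 2498, 2799, 2700 and 1875 with both agents, against 580, 372, 661 and 457 with vehicle. These groups did not overlap. Clcn3 rose by 2.16 ± 0.13 (SE; adjusted p = 4.46e-10), where TSA alone gave 1.62 and DP alone 1.69, and its departure of -1.14 passed (adjusted p = 0.00293). Sap30, a subunit of the Sin3 deacetylase complex, rose by 1.94 ± 0.15 (SE; adjusted p = 1.92e-08), with 1.46 and 1.79 for the single agents and a departure of -1.32 (adjusted p = 0.00536). Mxi1, a MYC antagonist and HIF target, rose by 1.31, beside 1.07 with TSA and 1.44 with DP, with a departure of -1.20 (adjusted p = 0.0125). Ero1a, the oxidase that makes disulfide bonds in the endoplasmic reticulum, read 8849, 8181, 5042 and 5979 with both agents, against 1152, 1011, 1243 and 1215 with vehicle, and rose by 2.52 ± 0.19 (SE; adjusted p = 1.59e-08). It was above TSA alone by 1.37 (adjusted p = 0.00146), while its 0.38 over DP alone did not pass. The DNA replication licensing factor Cdc6 rose by 1.04, the clock repressor Ciart by 1.22 and the synaptic scaffold gene Homer1 by 1.46, although the other Homer1 probe sets gave 0.04 to 1.72.

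Bnip3, which recruits autophagosomes to mitochondria, met the definition of reinforcement but was lower with both agents than with DP alone. It read 6276, 6068, 6216 and 6165 with both agents, 2699, 2338, 2555 and 2336 with TSA, 12480, 12143, 10192 and 9598 with DP, and 1021, 868, 1036 and 1093 with vehicle. The 4 treatments did not overlap in any line, and the combined arrays lay within a narrow band. Its net change was 2.57 ± 0.10 (SE; 5.93-fold, adjusted p = 7.43e-13), and the combined signal fell by 0.83 on the log2 scale relative to DP alone (adjusted p = 1.96e-06). Its departure was -2.10 (adjusted p = 2.11e-08). Over all 33 upward genes the fitted net change exceeded both single changes in 27, beside 3458 of 11481 genes. The parts that define the class hold these same steps, which favours such a count. Both steps passed in 3 of the 33.

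The 9 genes reinforced downward were Csnk1d and Csnk2a1, which encode protein kinases, Tnrc6a, a partner of Argonaute in microRNA silencing, Kif22 and Incenp of the mitotic spindle and chromosomal passenger complex, Nup62 of the nuclear pore, Naa15 of an N-terminal acetyltransferase, the splicing factor Rbm25 and the repressor Zfp703. All 9 had every combined array below every vehicle array, which 10.4% of all genes did, but this too follows largely from how the class was defined. Kif22 read 3377, 2437, 2586 and 4144 with both agents, against 8338, 7804, 6744 and 7697 with vehicle, and fell by 1.30 ± 0.15 (SE; adjusted p = 2.57e-06). On this probe set the single changes were -0.65 each and the departure was -0.00, while the other Kif22 probe sets gave net changes of -0.50 and -0.75. Csnk2a1 read 945, 1019, 1980 and 1036 with both agents, against 2210, 2533, 2125 and 2224 with vehicle. The groups did not overlap, and the triCH1flox1 array was the highest of the combined ones. It was the 1 gene (0.00871%) lower than with each single agent, by 0.78 against TSA (adjusted p = 0.0402) and 0.66 against DP (adjusted p = 0.00219). The other 4 Csnk2a1 probe sets gave net changes between -0.44 and 0.16, and both steps passed in 9 of 16 settings. Other probe sets gave DP parts of -0.29 to 0.23 for Rbm25, -0.02 to 0.17 for Naa15 and -0.32 to 0.28 for Csnk1d. Those of Csnk2a1 ran from -0.34 to 0.15. Those of Tnrc6a, Kif22, Nup62 and Incenp stayed below 0, for Tnrc6a from -0.31 to -0.01. Of the 9 genes, 2 kept the class when probe sets were averaged and 0 with no variance trend. The downward class held 5 genes without flox1, 16 without triCH1flox1, 5 without triCH1flox2 and 4 without the flox2 DP array.

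Opposition ran mostly in 1 direction. In 54 genes (0.47%) the TSA part was lower and the DP part higher, and in 7 (0.061%) the TSA part was higher and the DP part lower. The DP part itself was higher in 139 genes and lower in 26. Of the 139, 54 had a lower TSA part, beside 18.6% of all genes. Of the 26, 7 had a higher TSA part, beside 24.5% of all genes. Of the 54, 33 had a net change that did not pass and stayed under 0.5 in size, here called cancelled, and 21 had a net change that passed, here called overridden by 1 agent. Without the flox2 line 26 genes fell into this class, and without triCH1flox2 34 did. The median change over the 54 genes was 0.03 with both agents, -0.22 with TSA alone and 1.16 with DP alone. A lower TSA part can hold a fall with TSA alone or a smaller rise with DP when TSA was present, and the departure from the sum was below 0 in 51 of the 54 genes. HIF targets made up 20 of these 54 genes, out of 58 HIF targets measured.

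Bhlhe40, a clock and stress repressor induced by HIF, had a net change that did not pass between single changes of opposite sign. It read 1186, 1368, 1116 and 895 with both agents, 582, 306, 376 and 373 with TSA, 4935, 5467, 3382 and 2666 with DP, and 888, 688, 1670 and 1076 with vehicle. Combined and vehicle arrays overlapped, while all TSA arrays were below and all DP arrays above both. The net change was 0.13, with a 95% interval of -0.34 to 0.61 (adjusted p = 0.707), where TSA alone gave -1.26 and DP alone 1.89. The departure of -0.50 did not pass. The lines differed in sign, with net changes of -0.56 and -0.25 in triCH1flox1 and triCH1flox2 and 0.40 and 0.94 in flox1 and flox2, so the overall value averages both signs.

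Adm, the vasodilator adrenomedullin, followed the same pattern with 2403, 3004, 2250 and 2160 with both agents, against 2974, 4030, 2395 and 2402 with vehicle. These groups overlapped, although the combined array was the lower in each line. The net change of Adm was -0.24 (95% interval -0.48 to 0.00), beside -0.88 with TSA and 0.86 with DP, and a second Adm probe set gave 0.19. Tnfsf9, a T cell costimulator, had a net change of -0.21 (95% interval -0.65 to 0.23), with -0.79 from TSA and 1.82 from DP. The kinase inhibitor Cdkn1a was at -0.18 (95% interval -0.38 to 0.02), with -0.28 and 0.52, and Mdm2, which degrades p53, was at 0.01 (95% interval -0.22 to 0.24), with -0.21 and 0.60. The intervals of Tnfsf9, Cdkn1a and Mdm2 allow net changes in either direction, for Tnfsf9 down to -0.65. The interval of Adm ends at 0.00 and leaves little room for a rise.

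In other cancelled genes TSA alone had a small fitted change, and the net change was smaller than the change with DP alone. Pfkl, the liver form of phosphofructokinase, read 2332, 1968, 1608 and 1808 with both agents, 5643, 6466, 4525 and 5458 with DP, and 2478, 1956, 2209 and 1615 with vehicle. Combined and vehicle arrays overlapped, and all DP arrays were above both. Its net change was -0.09 (95% interval -0.41 to 0.22), and the departure of -1.24 passed (adjusted p = 0.00727). Gys1, muscle glycogen synthase, gave 0.02 net (95% interval -0.38 to 0.43) beside 1.39 with DP, with a departure of -1.44 (adjusted p = 0.0165). Ccng2, an atypical cyclin, gave 0.18 net beside 1.80 with DP (departure -1.33, adjusted p = 0.0176), although a second Ccng2 probe set gave 0.94 net. Kdm3a, an iron-dependent histone demethylase, read 767, 947, 818 and 1031 with both agents, against 546, 568, 728 and 708 with vehicle. All its combined arrays were above the vehicle arrays, yet the net change of 0.45 missed the threshold (95% interval 0.04 to 0.87, adjusted p = 0.0871), and DP alone gave 1.86.

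Genes in which the DP part overrode the TSA part kept some of their rise with DP alone. A lower TSA part in them need not be a fall with TSA alone. Hk2, the inducible hexokinase, read 4037, 3786, 3252 and 2930 with both agents, 1692, 1521, 1884 and 1396 with TSA, 9325, 8434, 5791 and 4820 with DP, and 1792, 1579, 1674 and 1289 with vehicle. The combined arrays lay between the DP and the vehicle arrays in every line. Hk2 rose by 1.12 ± 0.12 (SE; adjusted p = 8.68e-07), with 0.04 from TSA alone and 2.09 from DP alone, and its departure, below the sum, passed (adjusted p = 0.00711). Pdk1, which holds back pyruvate oxidation, read 314, 666, 487 and 566 with both agents, 1686, 2120, 1889 and 1750 with DP, and 155, 212, 365 and 214 with vehicle. The flox1 combined array lay below the triCH1flox1 vehicle array, so these groups overlapped. Its net rise was 0.97 ± 0.19 (SE; adjusted p = 4.54e-04) against 2.78 with DP alone, and its departure of -2.48 was the lowest of all genes tested (adjusted p = 3.73e-05). The other Pdk1 probe sets rose by 0.57 to 0.73 with TSA alone.

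Ak4, a mitochondrial adenylate kinase, rose by 0.61 (adjusted p = 0.00521) against 2.83 with DP, and read 796, 794, 740 and 734 with both agents against 719, 481, 452 and 346 with vehicle. Egln1, the main HIF prolyl hydroxylase, rose by 0.61 (adjusted p = 1.15e-04) against 1.43 with DP. The mTOR inhibitor Ddit4 rose by 0.97 against 1.75 with DP, and Ppp1r3b, a glycogen-targeting phosphatase subunit, by 1.12 against 2.03. Pfkfb3, which makes the activator of glycolytic phosphofructokinase, rose by 1.53 (adjusted p = 3.46e-04) on its brightest probe set, against 3.38 with DP alone, but by 0.49 (adjusted p = 0.193) as a mean over probe sets. In 6 of the 54 genes TSA overrode DP, and the net change was a fall. Sertad1, a cell cycle cofactor, read 1091, 1476, 1360 and 1257 with both agents, against 2442, 2242, 1968 and 1995 with vehicle, and fell by 0.72 ± 0.13 (SE; adjusted p = 1.90e-04), where DP alone gave 0.56. The AP-1 subunit Fosl1 fell by 0.70, while its other probe set gave 0.48 and the mean over probe sets -0.11 (adjusted p = 0.794). Its fall did not pass without triCH1flox1 (-0.52, adjusted p = 0.0715) or without triCH1flox2 (-0.69, adjusted p = 0.0581).

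Ankrd37, an ankyrin repeat protein and HIF target, rested on few arrays. It read 713, 882, 225 and 234 with both agents, 158, 267, 147 and 240 with TSA, 5180, 5590, 1268 and 732 with DP, and 582, 204, 95.6 and 109 with vehicle. Combined and vehicle arrays overlapped because the flox1 vehicle array read 582. The net change of 0.98 ± 0.36 (SE) passed narrowly (adjusted p = 0.0417) and did not pass with a pseudocount of 200 (adjusted p = 0.0972), without flox2 (0.68, adjusted p = 0.244) or without triCH1flox1 (1.00, adjusted p = 0.0993). TSA alone gave 0.00 and DP alone 3.25. The promoters of Ankrd37 and Bnip3 are shown as those of 2 HIF targets with large DP rises, 3.25 and 3.40, with matches to the hypoxia response core, ACGTG or GCGTG on either strand, in capitals (RefSeq, GRCm38.p6, same window, 5′ to 3′).
Ankrd37, chr8:45999801-46000100, minus strand: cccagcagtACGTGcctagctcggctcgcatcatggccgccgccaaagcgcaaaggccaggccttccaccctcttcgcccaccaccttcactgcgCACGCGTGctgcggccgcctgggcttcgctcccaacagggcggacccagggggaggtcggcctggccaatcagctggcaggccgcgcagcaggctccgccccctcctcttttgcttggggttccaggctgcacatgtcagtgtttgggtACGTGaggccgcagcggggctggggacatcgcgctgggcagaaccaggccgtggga
Bnip3, chr7:138909457-138909756, minus strand: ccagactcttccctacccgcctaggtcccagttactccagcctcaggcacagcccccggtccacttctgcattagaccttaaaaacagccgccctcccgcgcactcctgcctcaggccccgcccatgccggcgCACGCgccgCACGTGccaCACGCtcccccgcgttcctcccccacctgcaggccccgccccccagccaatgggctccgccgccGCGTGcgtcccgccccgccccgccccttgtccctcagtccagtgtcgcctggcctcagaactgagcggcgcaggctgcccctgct
Ankrd37 held 4 matches and Bnip3 5, some of them overlapping. A match was present in 91.7% of the 48 HIF targets with a promoter entry, in 80.5% of the 41 genes with a lower TSA and a higher DP part, in 86.7% of the 30 reinforced upward, and in 68.3% of all 9313 tested genes with an entry. So short a core is common, and its presence was not tested as binding.

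The reverse opposition, TSA up and DP down, covered Klf2, Tubb2a, Iffo1, Micall2, Ece1, Arf2 and Cpd. Klf2, a Krüppel-like factor that restrains inflammation, read 1586, 2273, 1783 and 1695 with both agents, 2246, 3207, 2151 and 2547 with TSA, 306, 840, 590 and 571 with DP, and 539, 924, 689 and 770 with vehicle. All combined arrays were above all vehicle arrays, and in each line the combined array was below TSA alone. Klf2 rose by 1.28 ± 0.13 (SE; adjusted p = 6.09e-07), and the step from TSA alone, -0.45, did not pass (adjusted p = 0.592). Tubb2a, a beta tubulin, rose by 0.74, with 0.83 from TSA and -0.42 from DP. The other 5 had net changes between -0.10 and 0.30 that did not pass, and the other probe sets of Arf2 and Cpd gave 0.27 to 0.67, that of Iffo1 1.16 and those of Ece1 0.16 and 0.54. The class held 2 genes without flox1, 0 without flox2, 2 without triCH1flox2 and 3 without the flox2 DP array.

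Of 58 measured HIF targets, 38 were higher with both agents than with vehicle, 2 were lower and 18 did not pass, beside 18% higher and 14.2% lower of all genes. They come from 2 lists, 20 genes of glycolysis and glucose transport and 39 others, with 1 gene in both. In 31 every combined array was above every vehicle array, beside 13.7% of all genes, and the median net change was 0.62 against 0.01 over all genes. The single changes, which share the vehicle arrays with the net change, had medians of 0.26 with TSA and 1.36 with DP. Set directly against DP alone, 34 of the 58 were lower with both agents and 4 higher, beside 12.5% and 18% of all genes. Against TSA alone 12 were higher, beside 0.139% of all genes. The net change passed as a rise in 23 of the 58 in the triCH1 lines taken alone and in 35 in the control lines. Of all 11481 genes, 1093 and 1091 did so. The class difference was below 0 in 39 and had an unadjusted p under 0.05 in 15, beside 454 of 11481 genes, and it passed adjustment in 0. Those 12 were among the 16 genes raised by DP on top of TSA. They comprised Adm, Bhlhe40, Bnip3, Ddit4, Egln1, Ero1a, Higd1a, Hk2, Ier3, Pgk1, Plod2 and Slc2a1, and the other 4 were Mt1, Mt2, Tfrc and Wsb1.

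**Figure D3:**
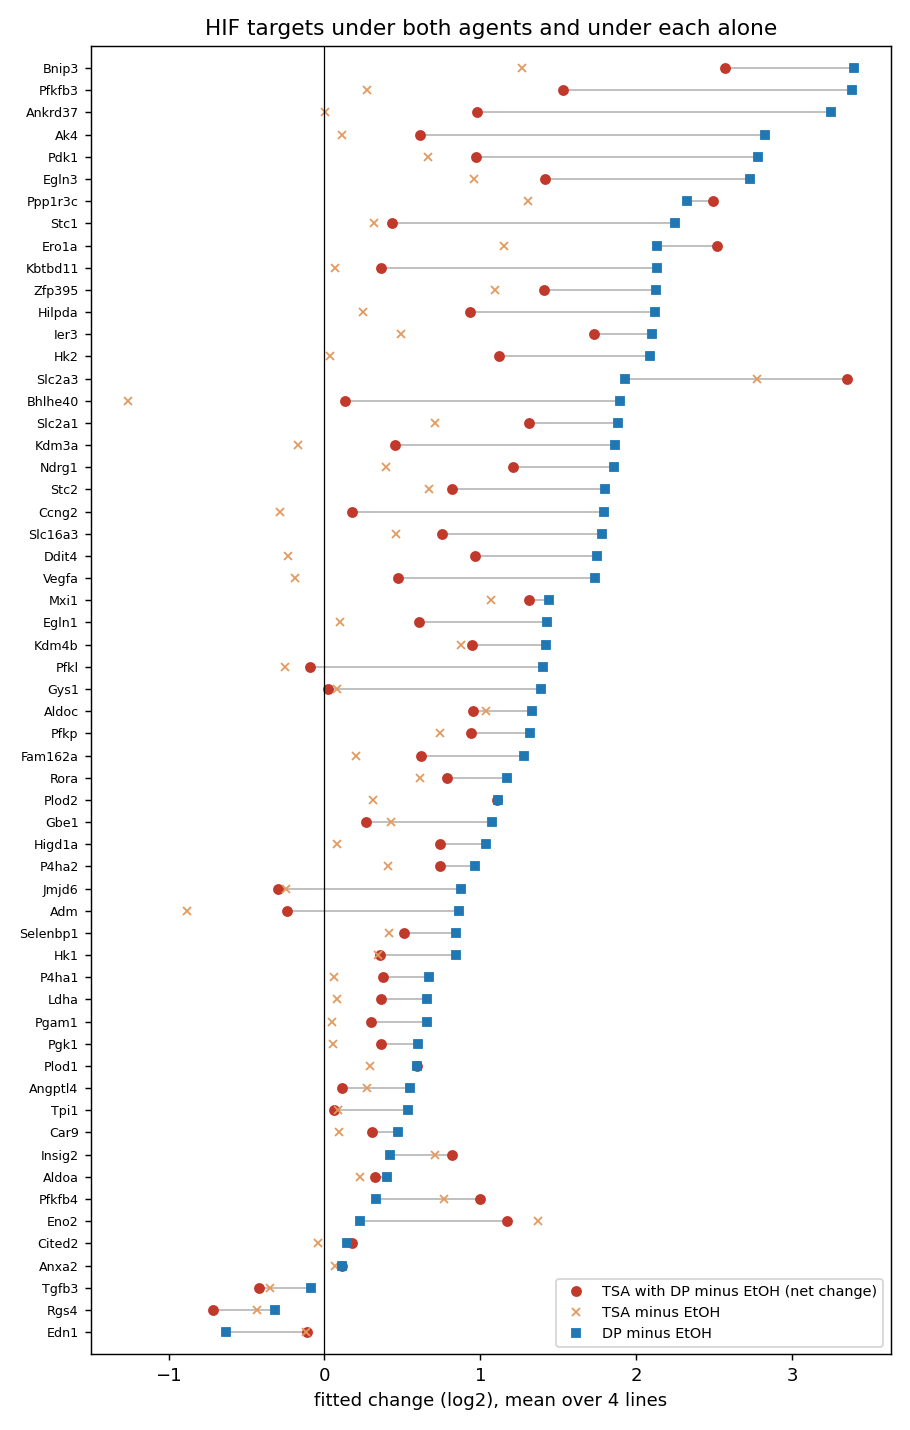
Fitted changes (x axis, log2, mean over 4 lines) of the 58 HIF targets, ordered by their change with DP alone, for both agents, TSA alone and DP alone against vehicle. A grey line joins the net change to the change with DP alone; in 49 genes the net change lies to the left of the change with DP alone, and Slc2a3, Ppp1r3c, Ero1a, Insig2, Pfkfb4 and Eno2 are among those to the right.

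Among glucose transport and glycolysis genes, Slc2a1, the ubiquitous glucose transporter, read 12486, 12311, 10993 and 9433 with both agents, 20209, 21137, 13990 and 13208 with DP, and 4502, 4013, 5239 and 4343 with vehicle. It rose by 1.31 ± 0.12 (SE; adjusted p = 1.24e-07) and was below DP alone by 0.57 (adjusted p = 0.00103) in the fit. Pgk1, phosphoglycerate kinase, rose by 0.36 ± 0.06 (SE; adjusted p = 1.20e-04) and Ldha, lactate dehydrogenase, by 0.36 ± 0.09 (SE; adjusted p = 0.00281), with DP alone at 0.60 and 0.66. For both, all combined arrays were above all vehicle arrays. Eno2, a neuronal enolase isoform, rose by 1.17, with 1.37 from TSA and 0.23 from DP, and its TSA part was the only called one. Ppp1r3c, which targets phosphatase to glycogen, read 1193, 969, 284 and 295 with both agents, against 191, 9, 16.9 and 102 with vehicle, and rose by 2.49 ± 0.50 (SE; adjusted p = 7.20e-04) from dim vehicle signals.

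Of the remaining HIF targets, Egln3, an inducible prolyl hydroxylase, read 902, 924, 446 and 468 with both agents, 3757, 4244, 797 and 609 with DP, and 259, 239, 214 and 152 with vehicle. It rose by 1.41 ± 0.29 (SE; adjusted p = 7.95e-04), with 2.73 from DP alone and a departure of -2.27 (adjusted p = 0.0105). The combined arrays were all above vehicle, and the gap to DP alone was narrow in the triCH1 lines and wide in the control lines. A second Egln3 probe set gave 0.62 net and 1.99 with DP alone. Ier3, a stress-induced survival gene, rose by 1.73, Plod2, a collagen lysyl hydroxylase, by 1.11 and Higd1a, a mitochondrial stress protein, by 0.74, and none of these 3 had a departure that passed. Rgs4, a regulator of G protein signalling, and Tgfb3 fell, by 0.71 and 0.42. The fall of Rgs4 did not pass without flox1 (-0.48, adjusted p = 0.0983) or without flox2 (-0.69, adjusted p = 0.0666), and a second Rgs4 probe set gave -0.22.

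Departures from the sum of the single changes passed the test in 32 genes (0.279%), all of them below the sum, and in 0 above it, where 689 genes had an unadjusted p under 0.05 in limma's test. HIF targets made up 17 of the 32. Of the 32, 23 were net rises, 0 were net falls and 9 had a net change that did not pass. Without the flox2 line 9 departures passed, and without triCH1flox2 20.

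A difference in net change between the triCH1 and the control lines passed for 0 genes in limma's test (454 at an unadjusted p under 0.05), and without flox2 1 gene did. Vegfa, the angiogenic growth factor, was split by class: it read 1342, 1215, 974 and 575 with both agents, against 592, 574, 1101 and 611 with vehicle. In both triCH1 lines the combined array was below vehicle, and in both control lines above it. The class difference, triCH1 minus control, was -1.19 (95% interval -1.84 to -0.54, limma's unadjusted p = 0.00122, adjusted p = 0.996), 1 of 11481 such tests. Over all 4 lines the net change of Vegfa was 0.47 (95% interval 0.06 to 0.88, adjusted p = 0.0750), against 1.74 with DP alone. It passed without triCH1flox1 (0.69, adjusted p = 0.0180) and without triCH1flox2 (0.66, adjusted p = 0.0395). The net change of Vegfa was 0.26 without flox1 (adjusted p = 0.391), 0.29 without flox2 (adjusted p = 0.412) and 0.25 without the flox1 EtOH array (adjusted p = 0.329), and a second Vegfa probe set gave 0.71. Bhlhe40 showed the same split of signs, with a class difference of -1.08 (95% interval -1.74 to -0.41, adjusted p = 0.996). Each class was 2 lines.

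Many of the largest net changes had a TSA part and no called DP part. The 12 largest rises were those of Slc2a3, Mt2, Fam117a, Mt1, Bcl2l11, Tent5c, Depdc7, Mxd1, Rhpn2, Bnip3, Ero1a and Ppp1r3c, and 6 of these, Fam117a, Bcl2l11, Tent5c, Depdc7, Mxd1 and Rhpn2, had a called TSA part only. Bcl2l11, which encodes the death protein BIM, read 9012, 7315, 7981 and 5876 with both agents, against 1597, 908, 744 and 869 with vehicle. No array overlapped. It rose by 2.86 ± 0.13 (SE; 7.25-fold, adjusted p = 1.25e-11), beside 3.01 with TSA and 0.64 with DP, and its other 4 probe sets gave 0.60 to 2.31. Fam117a, of little-studied function, read 2595, 2113, 2751 and 1813 with both agents, against 215, 211, 263 and 269 with vehicle, and rose by 3.02 ± 0.14 (SE; adjusted p = 1.25e-11). Mxd1, a MYC antagonist, rose by 2.61, although its second probe set gave 0.67.

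The largest fall was that of the neutrophil chemokine Cxcl5, which read 17.3, 36.1, 46.2 and 15.4 with both agents, 819, 1159, 2431 and 1502 with DP, and 619, 827, 1983 and 1458 with vehicle. The combined signals were near the floor of the array in every line, so the change of -3.90 ± 0.34 (SE; adjusted p = 6.68e-08) depends on the pseudocount. TSA alone gave -3.44 and DP alone 0.29. Sertad4 fell by 2.29 ± 0.13 (SE; adjusted p = 4.46e-10), the serotonin receptor gene Htr1b by 2.27, the growth factor Fgf7 by 2.09 and the chromatin reader Zmynd8 by 2.07. Fgf7 read 377, 321, 388 and 388 with both agents, against 1278, 1611, 2394 and 1818 with vehicle, with no overlap. The other 7 of the 12 largest falls were those of Clcf1, Gmeb2, Bend3, Calhm2, Srek1, Hoxb2 and Tnrc18. All 12 genes had a called TSA part only, and DP alone changed them by -0.42 to 0.29. Other probe sets gave net changes of -0.65 for Htr1b, -0.09 for Gmeb2, -1.91 for Fgf7 and -2.62 and -0.40 for Clcf1. Those of Tnrc18 gave -1.36 and -0.37, of Srek1 -1.21 to -0.83 and of Zmynd8 -1.63 to -0.36.

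Coactivators and deacetylases were among the genes with a called TSA part only. Of 28 measured histone deacetylases and acetyltransferases, 5 were higher and 7 lower, beside 18% and 14.2% of all genes, with a median net change of -0.15. Crebbp read 384, 625, 458 and 674 with both agents, against 1425, 2022, 1437 and 2500 with vehicle, and fell by 1.69 ± 0.13 (SE; adjusted p = 2.09e-08). Ep300, the gene of p300, read 433, 286, 425 and 271, against 1054, 645, 1319 and 941 with vehicle, and fell by 1.35 ± 0.20 (SE; adjusted p = 2.66e-05). Neither overlapped between groups, and the fall was seen in all 4 lines. DP alone changed them by -0.02 and 0.13. The deacetylase Hdac7 fell by 1.15 and the acetyltransferase Kat7 by 0.95, while Sirt7 rose by 0.73 and Hdac6 by 0.68. The rise of Hdac6 did not pass without flox1 (0.53, adjusted p = 0.0580).

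Regulators of cell death moved in both directions. Of 14 measured Bcl2 family members 7 were higher and 5 lower, and of all genes 18% and 14.2%. Besides Bcl2l11 and Bnip3, the death-promoting Bmf rose by 1.99, Pmaip1 by 1.58 and Bik by 1.53, and the survival genes Bcl2l1 and Mcl1 fell by 0.78 and 0.49. The mean over probe sets gave 0.53 (adjusted p = 0.183) for Bmf and -0.28 (adjusted p = 0.272) for Bcl2l1. Bik did not pass without flox2 (1.28, adjusted p = 0.0640), and the other Mcl1 probe sets gave -0.37 to -0.01. Mitotic genes were lower or did not pass: 12 of 23 were lower and 0 higher, with Cdc20, the activator of the anaphase-promoting complex, down by 1.00 ± 0.10 (SE; adjusted p = 1.94e-07) and the kinase Plk1 by 0.96. Of 26 genes of DNA replication and S phase 5 were higher and 4 lower, near the shares of all genes, among them Cdc6 upward and the ribonucleotide reductase subunit Rrm2, down by 0.73.

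Metal genes beyond the metallothioneins had mostly smaller changes. Of 17 measured iron-handling genes 8 were higher and 1 lower, beside 18% and 14.2% of all genes. Slc40a1, the iron exporter ferroportin, read 353, 336, 311 and 338 with both agents, against 85.3, 12.7, 15.1 and 37.6 with vehicle, and rose by 2.20 ± 0.28 (SE; adjusted p = 5.66e-06). Its vehicle signals were dim. Pcbp1, an iron chaperone, fell by 0.74. Of 15 metallothionein and zinc genes 7 were higher and 2 lower, with Mtf1 at 0.70 on its brightest probe set but 0.10 (adjusted p = 0.675) as a mean over probe sets, and the zinc importers Slc39a10 and Slc39a13 down by 0.61 and 0.65. Among 19 iron-dependent histone and DNA demethylases 3 were higher and 6 lower, although their median was 0.47 with DP alone and -0.13 with both agents. Kdm4b, a HIF-induced demethylase, had a net change of 0.94 with overlapping groups, which did not pass without flox1 (0.66, adjusted p = 0.109), without triCH1flox1 (0.70, adjusted p = 0.0890) or without the flox1 EtOH array (0.72, adjusted p = 0.0540). Kdm2a was at -0.59 on its brightest probe set, while its others gave -0.42 to 0.25 and their mean -0.26 (adjusted p = 0.184). Kdm1a, which fell by 0.72, is on the list although it uses a flavin and not iron.

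**Figure D4:**
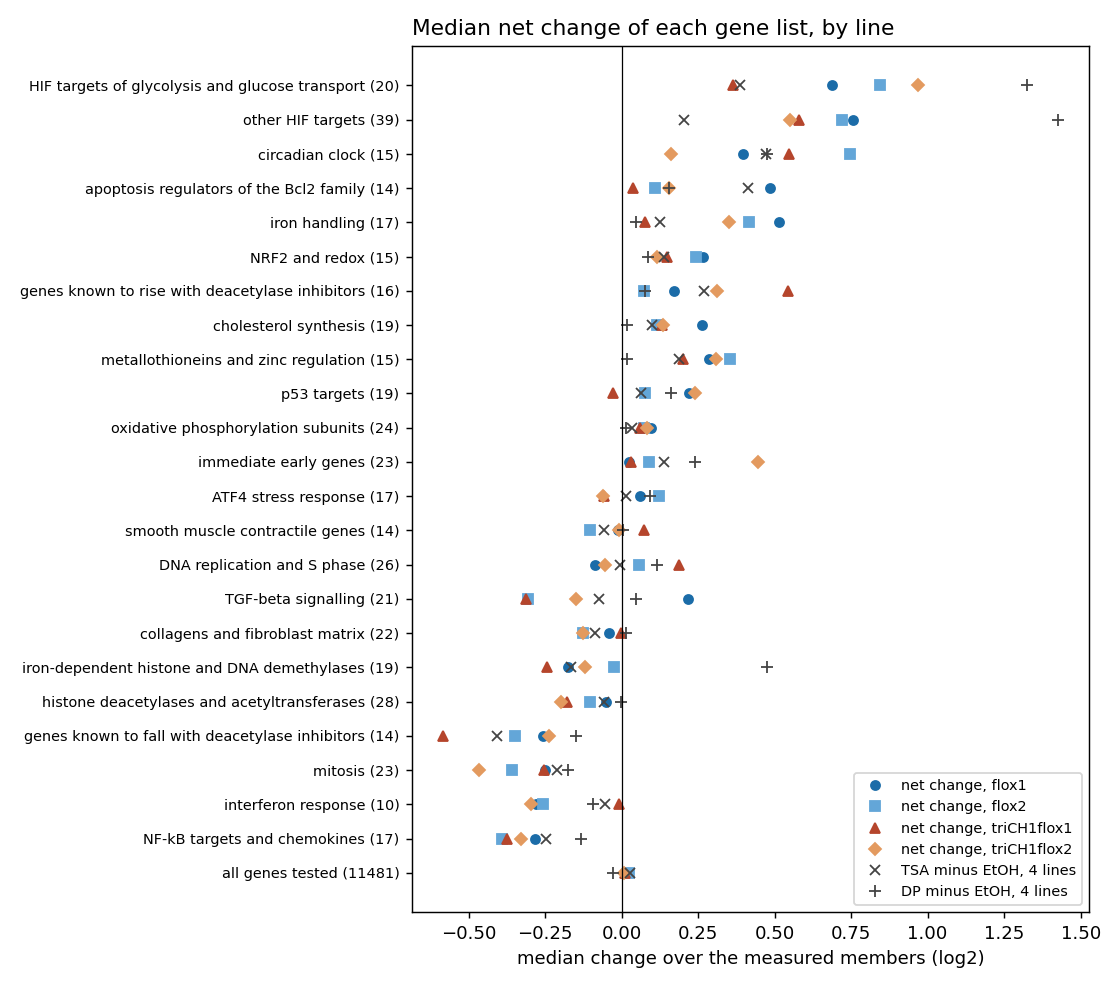
Median change (x axis, log2) over the measured members of each gene list (number in brackets), as the net change in each of the 4 lines and as the change with TSA alone and DP alone over 4 lines. Both HIF lists lie to the right of 0 in every line and to the left of their medians with DP alone, 1.33 and 1.43. The mitosis and NF-kB lists are among those to the left of 0 in every line.

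The remaining lists held mixed changes, to be read beside the 18% of all genes that were higher and the 14.2% that were lower. Of 15 clock genes 7 were higher, Cry2 by 1.35, Cry1 by 1.05 and Per1 by 0.90 among them, and 1, Nr1d2, was lower by 0.74. Per1 did not pass without flox1 (0.71, adjusted p = 0.0640) and Nr1d2 without triCH1flox2 (-0.64, adjusted p = 0.0590). Immediate early genes split into 9 higher and 5 lower of 23: Nr4a1 rose by 1.86 and Fos by 1.66, whereas the AP-1 subunit Fosl2 fell by 1.42. Fos read 768, 1435, 2349 and 2557 with both agents, against 457, 354, 676 and 470 with vehicle, with no overlap. NF-kB targets and chemokines had 3 higher and 8 lower of 17, with the inhibitor Nfkbie up by 1.56, the survival factor Birc3 down by 1.36 and the cytokine Lif down by 1.65. TGF-beta signalling had 2 higher and 7 lower of 21, and the p53 targets 4 higher and 2 lower of 19, near the shares of all genes.

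Structural programmes held few calls, where 18% of all genes were higher and 14.2% lower. Of 22 collagens and matrix genes 0 were higher and 1, Loxl1, was lower, by 0.23, of 14 smooth muscle contractile genes 0 were higher and 1 lower, and of 24 oxidative phosphorylation subunits 2 were higher and 0 lower. The fall of Loxl1 did not pass without flox2 (-0.23, adjusted p = 0.0627) or without triCH1flox2 (-0.23, adjusted p = 0.0551). Of the 12 fibroblast markers the transcription factors Twist1 and Prrx1 and the receptor Pdgfrb fell, by 1.20, 1.12 and 0.98, and the other 9 did not pass. Prrx1 read 4129, 5465, 3530 and 3953 with both agents, against 9211, 10961, 7037 and 10075 with vehicle. Macrophage, endothelial and erythroid markers were low, summing to 766 to 975, 398 to 631 and 88.7 to 278 on combined arrays. On vehicle arrays they summed to 734 to 871, 324 to 792 and 113 to 434. Adipocyte, cartilage and epithelial markers summed to at most 2140, 2720 and 1738 on combined arrays, and 2054, 2869 and 2270 on vehicle arrays. Skeletal muscle markers summed to 6310 to 9313 on combined and 5440 to 8026 on vehicle arrays. Of these, Acta1 alone read 6023 to 8753 and 4841 to 7447. Of the neural list Tubb3 rose by 1.34. Map2 was at 0.42, which did not pass without flox2 (0.39, adjusted p = 0.121), without triCH1flox2 (0.28, adjusted p = 0.222) or as a mean over probe sets (0.16, adjusted p = 0.314), and its other probe sets gave -0.07 and 0.12. The list summed to 9698 to 15349 on combined and 6598.9 to 14518.5 on vehicle arrays. What part a shift in cell types had in any change was not tested, and fewer cells of a type and less RNA per cell cannot be told apart in such samples.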

How the data were processed

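Affymetrix Mouse430_2 arrays measured RNA of 4 fibroblast lines under 4 treatments. The values are the authors' deposited intensity per probe set, scaled on every array to a target of 500 with Affymetrix's statistical algorithm, per the labels; the software version is not given in the sources used here. An array has no read depth, and the number of arrays limits the precision.

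From these, log2(signal + 50) was fitted with limma 3.58.1 in R 4.3.3 (lmFit, eBayes with a variance trend) over all 16 arrays, with 4 treatment means and the line as a block, leaving 9 residual degrees of freedom. Genes needed a signal of 200 on 2 arrays. Of 45101 probe sets, 34945 had 1 gene symbol in the platform annotation, 932 several and 9160 none; the 64 control probe sets were left out. Calls used a Benjamini-Hochberg adjusted p under 0.05 over all 11481 genes, and every adjusted p in the text is limma's. Lines were compared in a fit of 8 group means. Lines pair the arrays because all treatments of a number come from 1 line: deviations from the treatment means correlated at 0.156 to 0.386 within lines (24 pairs) and at -0.271 to 0.146 between lines (72 pairs).

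Named genes were the 12 largest called net rises and falls with 1 sign in all lines, up to 8 genes of each class of 2 called parts, the largest overridden and cancelled genes, the largest departures, 20 genes named in every case, and up to 4 members of each list with the smallest adjusted p. Chosen after their values were seen were Adm, Atp7a, Bik, Birc3, Egln1, Eno2, Fos, Gys1, Hdac6, Higd1a, Homer1, Insig2, Ipo5, Kat7, Kdm3a, Lif, Mcl1, Mdm2, Mtf1, Mxi1, Nr1d2, Pdia4, Per1, Pfkfb4, Pfkl, Rgs4, Sesn1, Slc39a10, Slc39a13, Tgfb3, Wsb1, Zfp703 and Zmat3. The genes past each single agent were chosen after their values were seen. The comparison, its members and the lists were chosen with earlier results of these data known. The fit was tested on simulated data. Promoters came from RefSeq tables through Python 3.11.15. The 18 alternatives are described in the closing section; the direct comparisons with each single agent and the fits of them were chosen after seeing the data.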

Additional observations from a re-analysis of the deposited data

Results flagged for a closer look

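In 81 measures examined for a line or array far from the others, 7 stood apart, where chance flags about 1 in 20 groups. The fall of Calhm2 was -0.28 in flox1, far from the larger falls of the other lines. The median net change of the immediate early genes was 0.44 in triCH1flox2, that of the interferon response -0.00728 in triCH1flox1 and that of cholesterol synthesis 0.26 in flox1, each far from the other lines. Among vehicle arrays the flox1 array had the Gapdh ratio of 2.59 and the actin ratio of 2.07, and among DP arrays the flox2 array had an 18S signal of 8257.

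The sign of the net change differed between the triCH1 and the control lines in 3 measures. Vegfa changed by -0.17 and -0.079 in triCH1flox1 and triCH1flox2 and by 1.12 and 1.02 in flox1 and flox2. Bhlhe40 changed by -0.56 and -0.25 in the triCH1 lines and by 0.40 and 0.94 in the control lines. For both genes limma's class difference had an adjusted p of 0.996. The ATF4 stress response list had medians of -0.0584 and -0.0623 in the triCH1 lines and 0.0595 and 0.122 in the control lines, and this difference was not tested.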

How the results depend on the processing

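In 18 alternatives no named gene of 204 changed the sign of a called net change. Counts of small classes moved most. Genes reinforced downward, 9 as reported, numbered 5 when the probe sets of a gene were averaged, 1 with no variance trend, 17 with array series as a term and 4 without the flox2 DP array. Genes with a higher TSA and a lower DP part, 7 as reported, numbered 2, 1, 12 and 3 in the same settings. With no variance trend 31 genes had a lower TSA and a higher DP part, 12 departures passed, 3 genes were higher than with TSA alone and 1 was above each single agent. The 1 gene below each single agent became 2 with quantile normalization, with array series as a term and without the flox1 EtOH array, and 0 without the flox2 DP array or when probe sets were averaged. In lines of 1 array series 1038 genes were higher and 732 lower than with vehicle. With no replicate block, the fit that ignores the pairing by line gave 3 genes reinforced downward, 27 with a lower TSA and a higher DP part, 0 with the reverse, 13 departures, 7 genes higher than with TSA alone and 0 below each single agent.

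Leaving out 1 line at a time gave 1501 to 1873 net rises, 1127 to 1421 net falls, 17 to 41 genes reinforced upward and 2 to 16 downward, 26 to 43 and 0 to 8 opposed genes, 9 to 27 departures, 6 to 13 genes higher than with TSA alone, 2 to 3 above and 0 to 1 below each single agent, and 0 to 1 class differences. Median centring changed the share of rises among net calls to 47.8%, against 55.8% as reported. Limits are 1 array per line and treatment, 2 lines per class, dim signals near the background, and vehicle arrays of 1 array series. The cause of these shifts was not tested.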

Other observations

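Stress and metabolic lists were mixed under both agents, where 18% of all genes were higher and 14.2% lower than with vehicle. Of 17 measured genes of the ATF4 stress response 5 were higher than with vehicle, with the transcription factors Atf3 up by 1.27 and Ddit3 by 0.71, and 4 were lower, with Atf4 itself down by 0.85 and Cebpg by 0.75. Of 15 NRF2 and redox genes 4 were higher, among them the glutathione transferase Gsta4 by 1.41 and the thioredoxin inhibitor Txnip by 1.17, and 2 were lower, among them the small Maf protein Mafg by 1.03. Of 19 genes of cholesterol synthesis and its control 4 were higher, with the last enzyme of the pathway, Dhcr7, up by 1.13, and 2 lower, near the shares of all genes. Among 10 interferon response genes 1 rose, Irf1 by 0.70, and 1 fell, Ddx58 by 0.69.

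A pair of lists holds genes known from other work to respond to deacetylase inhibitors. Of 16 genes known to rise 7 were higher, among them Rhob by 0.95, and 1, Klf6, was lower by 1.01. Of 14 genes known to fall 0 were higher and 7 lower. Myc was at -0.81, and its fall did not pass without triCH1flox1 (-0.59, adjusted p = 0.0566), with array series as a term (-0.69, adjusted p = 0.0572), with no replicate block (adjusted p = 0.0617) or in the lines of 1 array series (-0.35, adjusted p = 0.438). These lists share many members with lists described above, among them Mt1, Mt2, Hdac7, Bcl2l1, Klf6 and Myc. The p53 targets Fas, Gadd45a and Sesn1 rose by 1.11, 1.18 and 0.80, while Phlda3 and Zmat3 fell by 0.97 and 0.48.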
